A study of Mus musculus with 65 samples.

Results

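The 10 genes described here, Rnu1a1, Rnu3a, Rnu3b1, Rnu3b4, Snord13, Snord118, Gm25313, Gm25890, Gm22634 and Gm22973, code for short non-coding RNAs. They were followed through repli-ATAC-seq of mouse E14TG2a embryonic stem cells, as 10 of 31995 transcription start sites (TSSs) with a 1 kb window. In this assay Tn5 transposase cuts open chromatin, and fragments of newly replicated DNA that carry the base analogue EdU are captured on beads. The cells were given DMSO, DRB or triptolide for 2 h, then a pulse of 20 uM EdU for 10 min, and were collected either at once (nascent chromatin) or after a 2 h chase with 10 uM thymidine. The captured DNA (EdU fraction) and the DNA left in the supernatant (unbound fraction) were both sequenced, with 3 libraries for each of the 12 groups. Further groups without inhibitor were a time series (nascent, 30 min, 1 h and 2 h), untreated steady-state cells, ChIP for RNA polymerase II phosphorylated on serine 5 (S5P), and nascent and 2 h samples, 2 libraries each, with 100 Drosophila S2 cells added. Neither the drug doses nor the presence of the drugs during the chase is given in the sources used here. The labels do not tell which libraries came from separate cultures, so the tests measure the spread between these libraries, which may be technical.

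U1 RNA base-pairs with the start of introns in the spliceosome. U3, U8 and U13 are small nucleolar RNAs that act in the processing or modification of ribosomal RNA. Genes of this kind have short promoters read by RNA polymerase II, in which the SNAPc complex binds a proximal sequence element, and the Integrator complex cuts the transcript at its end. DRB blocks CDK9, a kinase that releases polymerase into elongation, and triptolide acts on XPB, the TFIIH helicase that opens the DNA for initiation.

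Rnu1a1, a U1 gene, lies on the plus strand of chromosome 11 at 87422867 to 87423030 (mm10), within the span of the protein-coding gene Tex14. The U3 genes Rnu3b1 (87443237 to 87443451) and Rnu3b4 (87462286 to 87462503) lie in the same span and strand, 20.4 kb and 39.4 kb further on. Rnu3a, another U3 gene, lies on chromosome 10 at 40258468 to 40258679, plus strand, with the TSS of Gtf3c6 802 bp away on the other strand. Snord118, the U8 gene, lies on chromosome 11 at 69073426 to 69073562, plus strand, in a window that also holds part of Tmem107. Snord13, the U13 gene, lies on chromosome 8 at 31149861 to 31149958, minus strand, and its window holds the divergent TSS of Tti2, 349 bp away. The RefSeq table calls the other 4 genes snRNA genes without naming the RNA. Gm25313 is on chromosome 9 at 65196572 to 65196687 (minus strand), within the span of the lncRNA gene Gm40527. Gm25890 is on chromosome 3 at 96486555 to 96486719 (minus strand). Gm22634 and Gm22973 are on the plus strand of chromosome 12, at 54710308 to 54710471 and 59040335 to 59040525. The genes are 98 to 218 bp long, so a 1 kb window holds a whole gene or most of it and its promoter. Every gene had a deposited TSS within 9 bp of its RefSeq 5′ end. Near-identical copies of such genes may share reads, and no source used here gives the treatment of reads with several matches.

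The genes were selected on measured values of these data, and the record does not say on which. In the fit over 29799 TSS windows of the EdU fraction, their ranks ran from 1 to 206 for the largest gain between nascent and 2 h in DMSO. They ran from 1 to 65 for the largest loss with triptolide at 2 h. In the unbound fraction all lay within the 38 lowest of 30310 windows for triptolide minus DMSO in nascent cells and within the 28 lowest at 2 h. The DRB libraries enter the comparison of triptolide with DRB, in which the ranks for the largest loss at 2 h ran from 2 to 30. All comparisons of inhibitor libraries are therefore taken as values the genes may have been chosen by. They are given as descriptions, with estimates, standard errors and the count of genes past limma's threshold (called) beside the share of all windows, without p-values, and nothing is read from those counts. The spike-in samples are libraries outside these comparisons. There the ranks for the largest rise ran from 13 to 1156 of 30618 regions. Their values may also have entered the choice of the genes, so they are described in the same way, without p-values.

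The EdU libraries held 1.30 to 5.55 M reads and the unbound libraries 2.35 to 14.4 M. The stem cell markers Pou5f1, Nanog, Sox2, Zfp42, Klf4, Dppa4 and Tdgf1 all had a steady-state peak at the TSS (7 of 7). So did 4 of 8 fibroblast markers (Col1a2, Thy1, Pdgfrb and Dcn), 3 of 3 trophectoderm markers and 1 of 2 primitive endoderm markers with a TSS. In the S5P list these counts were 5 of 7, 0 of 8, 1 of 3 and 0 of 2. An open promoter does not show that its gene is expressed, and the part of other cell types in the results was not tested.

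In nascent EdU chromatin of DMSO cells the TSS windows of these genes held few reads, and after 2 h they stood among the open sites. Levels are given as RPM, the reads in the 1 kb window scaled to the depth of the library. The nascent means ran from 0.28 RPM for Snord13 to 3.81 RPM for Gm22973. Rnu1a1 had 0.58, 2.02 and 1.06 RPM in the 3 nascent libraries and 15.6, 13.7 and 16.9 RPM at 2 h. Rnu3a had 2.31, 4.04 and 3.44 RPM and then 40.5, 37.0 and 43.1 RPM. Gm22973 had 3.46, 5.05 and 2.91 RPM and then 34.6, 38.8 and 40.4 RPM. Each 2 h library lay above each nascent library for all 10 genes, where 43.5% of the TSS windows with reads in at least 3 of the 6 libraries did so. The differences between 2 h and nascent were 2.23 to 3.53 on the log2(RPM + 1) scale, all 10 past the threshold that 31.2% of windows passed. The windows held 2 to 27 nascent reads per gene in the 3 libraries together, and 85 to 391 at 2 h. The lowest gene at 2 h was Gm25890 at 8.82 ± 1.28 RPM (SD, n = 3) and the highest Rnu3a at 40.2 ± 3.06 RPM. For the 9 genes with more than 3 nascent reads the 2 h mean was 6.01 to 21.2 times the nascent mean. Snord13 had 2 nascent reads, and no ratio is given for it. In these bulk libraries, fewer molecules with an open site and a site less open in each cannot be told apart.

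**Figure D1:**
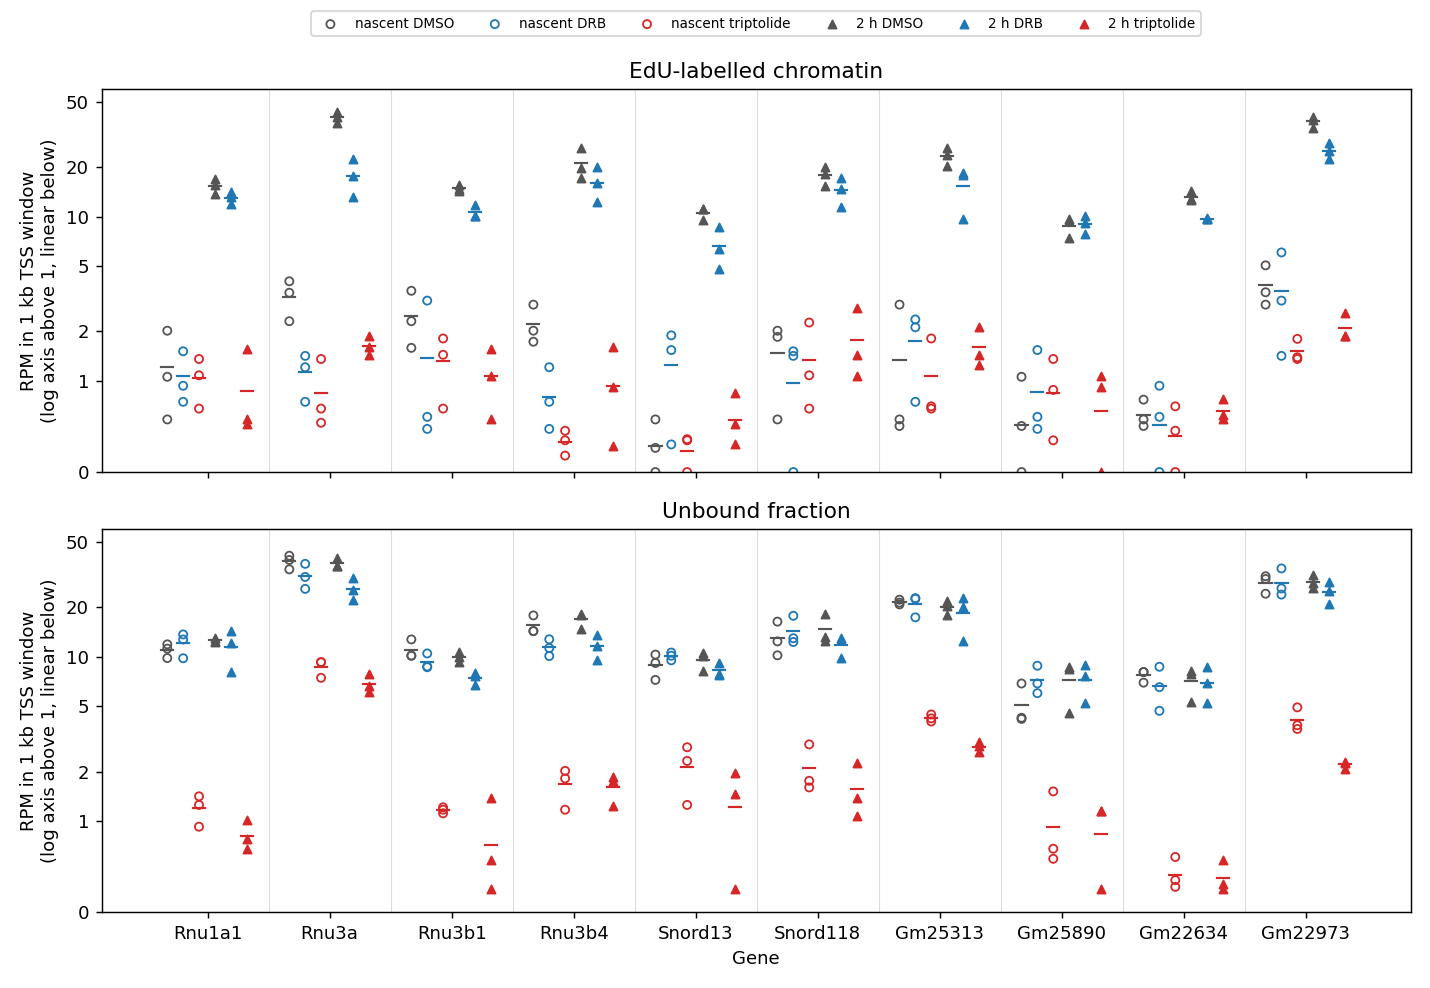
RPM in the 1 kb TSS window of each gene (log axis above 1 RPM, linear below) in the EdU fraction (top) and the unbound fraction (bottom), with 1 point per library, a bar at the mean of 3 libraries, open circles for nascent and triangles for 2 h. In the EdU fraction only the 2 h DMSO and 2 h DRB libraries reach 4.81 RPM or more, apart from single nascent points of Gm22973, and in the unbound fraction the triptolide libraries lie below the others for every gene.

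In DRB-treated cells too the 10 genes were higher after the chase, by 1.81 to 3.23 on the log2(RPM + 1) scale, which understates changes of low windows. All 10 were called higher, where 35.1% of all windows were. The median of the 10 genes was 2.72, beside a median of 0.44 over all windows tested. Rnu3b4 was higher by 3.23 (SE 0.32), with 0.47, 0.77 and 1.21 RPM in the nascent and 12.2, 20.2 and 15.9 RPM in the 2 h libraries. Rnu1a1 was higher by 2.77 (SE 0.32), from 0.95, 0.77 and 1.51 RPM to 13.1, 14.2 and 11.9 RPM. Snord13 had the smallest difference of the 10, 1.81 (SE 0.36), from 1.89, 1.54 and 0.30 RPM to 4.81, 6.34 and 8.70 RPM. Each 2 h library lay above each nascent library for all 10, as for 43.5% of windows. In the ranking of all windows by this difference Rnu3b4 stood at place 3, Rnu3a at 4, Snord118 at 8 and Snord13 at 1373. With each library centred on its median TSS window all 10 genes were called as well, while the windows called split into 5950 higher and 4455 lower, against 10463 and 586 without centring.

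With triptolide the windows stayed near the nascent level. Rnu1a1 had 0.58, 1.55 and 0.53 RPM at 2 h, against 0.70, 1.36 and 1.08 RPM in nascent triptolide chromatin. Rnu3a had 1.44, 1.86 and 1.60 RPM against 0.70, 1.36 and 0.54 RPM. For 2 of the 10 genes, Rnu3a and Gm22973, each 2 h library lay above each nascent library, as for 30.1% of windows. The differences of the 10 genes between 2 h and nascent ran from -0.20 for Gm25890 (SE 0.36) to 0.52 for Rnu3a (SE 0.30), with a median of 0.30 beside 0.24 over all windows. By limma 0 of 10 were called, 0 had an unadjusted p below 0.05 and limma-voom on the recovered reads called 0, where 14.1% of all windows were called higher. Only 6 to 22 reads per gene stood behind the 2 h triptolide means, so changes among such low values are poorly resolved.

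At 2 h the triptolide mean was 4.06% to 9.86% of the DMSO mean, with a median of 5.65%. The difference on the log2(RPM + 1) scale was largest for Rnu3a, at -3.97 (SE 0.30), and smallest for Gm25890, at -2.62 (SE 0.36). As a share of the DMSO mean Snord118 kept the most, 9.86%, against 7.54% for Gm25890. All 10 were called lower, where 28.6% of all windows were, and for all 10 the groups did not overlap, as for 44.1% of windows below. Against DRB at 2 h the triptolide libraries had 5.82% to 12.2% of the mean, and all 10 were called lower where 14.8% of windows were. The 2 h to nascent change in triptolide minus that in DRB was between -2.92 for Rnu1a1 (SE 0.46) and -1.47 for Snord13 (SE 0.51), with 9 of 10 called where 0.735% of windows were. This comparison was added after the data were seen, and the count was 3 with a pseudocount of 0.1 RPM and 2 with limma-voom. The same contrast of triptolide and DMSO ran from -3.18 for Gm25313 (SE 0.45) to -2.28 for Rnu3b4 (SE 0.45), with 10 of 10 called where 0.419% of windows were, and 3 with either of those settings.

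**Figure D2:**
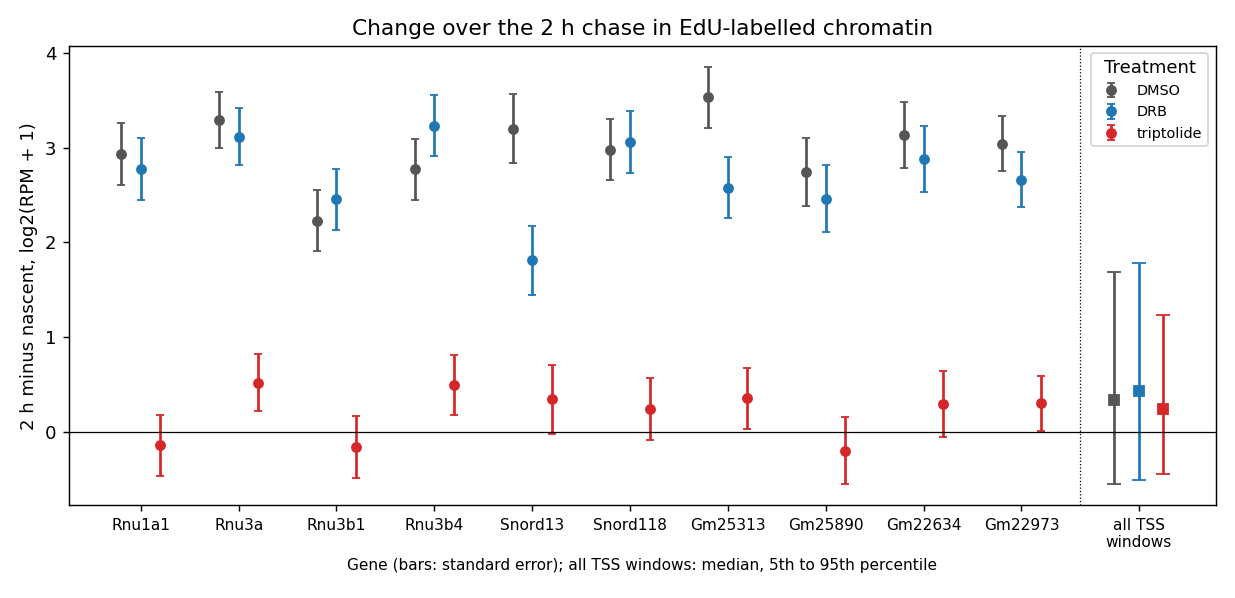
Difference between 2 h and nascent EdU chromatin on the log2(RPM + 1) scale for each gene under DMSO, DRB and triptolide, with standard errors from the limma fit, and at the right the median with the 5th to 95th percentile over all TSS windows tested. The DRB points lie between 1.81 and 3.23 and the triptolide points between -0.20 and 0.52.

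In nascent chromatin the DMSO levels were low, and a fall from such a level can be missed by the fit at this depth. Triptolide minus DMSO was called lower for Rnu3a (-1.20, SE 0.30), Rnu3b4 (-1.27, SE 0.32) and Gm22973 (-0.91, SE 0.29), where 11.6% of all windows were. Rnu3b4 had 0.35, 0.45 and 0.18 RPM with triptolide and 1.73, 2.02 and 2.91 RPM in DMSO, without overlap. The other 7 genes differed by -0.58 to 0.32. The Gm22973 call was lost without nascent DMSO library 2 (-0.74), without nascent triptolide library 1 (-0.88) or 2 (-0.87), without a filter on low values (-0.91), with centring (-0.69) and with limma-voom (-1.11). The Rnu3b4 call was lost with the mean of 2 windows (-0.72).

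At 2 h in EdU chromatin the DRB mean of the 10 genes was 44.1% to 103% of the DMSO mean, with a median of 72.6%. The 3 DRB libraries lay below the 3 DMSO libraries for 6 genes, as for 18.9% of windows. Rnu3a was the 1 gene called, at -1.17 (SE 0.30), with 13.1, 22.4 and 17.7 RPM in DRB against 40.5, 37.0 and 43.1 RPM, where 0.621% of windows were called lower. That call was lost without any 1 of the 3 DMSO libraries or without DRB library 1 or 3, with the difference between -1.22 and -0.98 in those fits. The other 9 genes lay between -0.63 for Snord13 (SE 0.36) and 0.04 for Gm25890 (SE 0.36). In nascent chromatin Rnu3a was again the 1 gene called (-0.99, SE 0.30), where 3.37% of windows were lower, and the call was lost without nascent DMSO library 2 (-0.86) or 3 (-0.95) or nascent DRB library 2 (-0.86). Without that DRB library Rnu3b1 was called instead (-1.14). The nascent DRB mean of Rnu3b4 was 36.8% of the DMSO mean, without overlap, and that of Rnu3b1 was 56.0%, with overlap. The DRB effect at 2 h minus that in nascent chromatin was called for 0 of 10 genes by limma, where 0.00671% of windows were lower, while 2 had an unadjusted p below 0.05 and limma-voom called 0.

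The unbound fraction, which was taken from the same captures, showed the TSS windows of the genes as open sites at both times in DMSO. Rnu3a had 34.1, 41.3 and 38.9 RPM in the nascent samples and 35.9, 39.7 and 36.0 RPM at 2 h. Across the 10 genes the 2 h mean was 90.5% to 141% of the nascent mean. In nascent DMSO samples the unbound libraries lay above the EdU libraries for all 10, as for 49.8% of windows.

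With triptolide the unbound levels of every gene were lower at both times. Nascent triptolide samples had 5.35% to 23.9% of the DMSO mean, and the differences ran from -2.64 for Rnu3b4 (SE 0.16) to -1.66 for Gm25890 (SE 0.23). All 10 were called where 1.53% of windows were, and none of the 10 overlapped, as for 8.92% of windows below. At 2 h the share was 5.34% to 18.4%, the differences ran from -3.19 for Gm22973 (SE 0.14) to -2.14 for Gm25890 (SE 0.23), and all 10 were called where 12.2% of windows were. Again no gene overlapped, as for 22.2% of windows below. In RPM Rnu3a had the most signal left, with 9.29, 9.26 and 7.45 RPM in the nascent and 6.68, 7.81 and 6.09 RPM in the 2 h triptolide samples. As a share of the nascent DMSO mean Snord13 kept slightly more, 23.9% against 22.8%. Rnu1a1 had 1.41, 0.94 and 1.25 RPM and 0.81, 1.01 and 0.69 RPM, against 12.4, 13.1 and 12.3 RPM in 2 h DMSO. With DRB the nascent samples had 73.5% to 142% of the DMSO mean, and limma called 0 of 10 lower, where 0.637% of windows were, while 2 had an unadjusted p below 0.05 and limma-voom called 0. At 2 h DRB samples had 68.2% to 100.9% of the DMSO mean, and Rnu3a was called (-0.51, SE 0.13) where 0.713% of windows were lower. That call was lost without any 1 of the 3 DMSO libraries or without DRB library 1 or 2, with values between -0.54 and -0.41.

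In the profiles around the TSS the signal at 2 h was a narrow block at the gene or just downstream of it. For Gm22634 the next window, which starts beyond the end of the gene, held 13.2 RPM in 2 h DMSO, as the TSS window did. In 2 h DMSO chromatin the TSS window held 2.27 to 60.9 times the mean of windows 3 to 5 kb away (median 13.6). In nascent DMSO chromatin the ratio had a median of 1.37, and with triptolide at 2 h a median of 0.65, with the TSS window below its flanks for 7 of 10 genes. Rnu3b1 had its highest signal in the next window downstream, at 31.4 RPM in 2 h DMSO, 19.6 RPM in DRB and 0.68 RPM in triptolide, against 14.9 RPM in the TSS window for DMSO. Around Rnu1a1 a second block, 4.13 kb downstream, reached 27.2 RPM in 2 h DMSO and 1.16 RPM with triptolide, in a window that holds the snRNA gene Gm22068. Upstream of Gm25313, 4.81 kb away, the window with the snRNA gene Rnu5g had 25.9 and 1.19 RPM. For Gm22634, 14 of 20 flanking windows had no read in any of the 36 libraries. Its flank ratio therefore rests on few windows. The same was true of 5 of 20 flanking windows for Gm22973 and 3 of 20 for Gm25890.

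**Figure D3:**
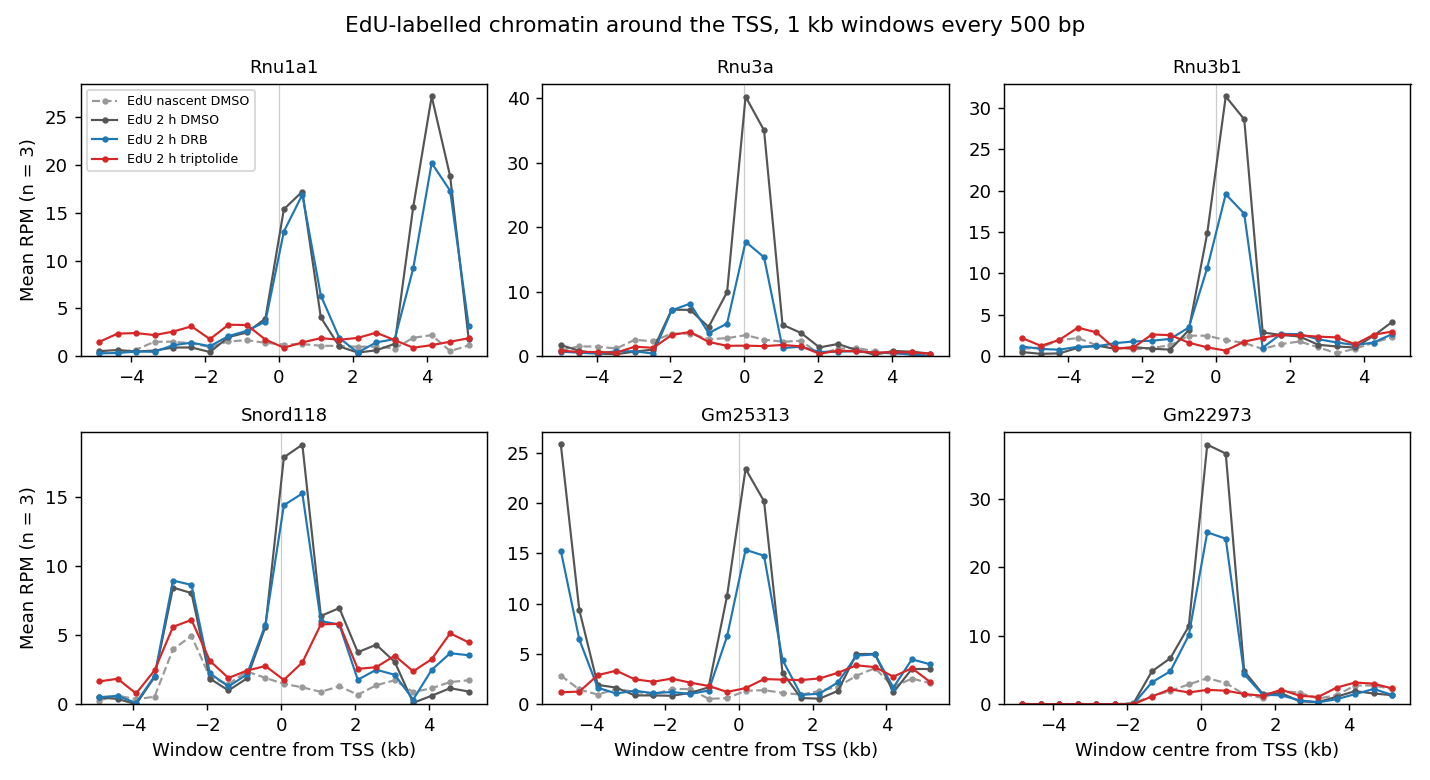
Mean RPM of 3 libraries in 1 kb windows every 500 bp around the TSS of 6 genes, oriented by strand, in nascent DMSO and in 2 h DMSO, DRB and triptolide EdU chromatin. The 2 h DMSO and DRB lines have a peak at the TSS or within 1 kb of it, while the triptolide line has no such peak. Rnu1a1 and Gm25313 each show a second block, in a window with another small RNA gene centred 4.13 kb and 4.81 kb away. In 2 h DMSO that block is higher than the peak at the gene, at 27.2 against 17.2 RPM for Rnu1a1 and 25.9 against 23.4 RPM for Gm25313.

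The deposited peak lists of cells without inhibitor were consulted for the same TSSs. A peak lay within 500 bp of the TSS of 6 genes in the nascent list, against 33.8% of all TSSs. The 4 without one were Snord13, Gm25313, Gm25890 and Gm22634. At 30 min 9 genes had a peak, against 39.8% of TSSs, and Rnu1a1, which had one in the nascent list, had none. All 10 had a peak in the 1 h list (42.8% of TSSs), the 2 h list (47.9%) and the steady-state list (53.9%). Not every peak covered the TSS itself. Those of Rnu3b1, Rnu3b4, Gm25890 and Gm22634 did not in any time-series list or the steady-state list. At Gm25890 and Gm22634 they lay downstream of the end of the gene. In the S5P list 9 of 10 had a peak, against 17.4% of TSSs, and Gm25890 had none. The S5P peak at Gm22634 did not cover the TSS. Lists hold 47341 peaks in the nascent sample and 106983 at 2 h, and carry no height or replicate, so the gain in genes with a peak has no test. The median summed length of the peaks at these genes was 512.5 bp in the nascent list, over the 6 genes with one, and 1350 bp for the same 6 genes in the 2 h list. Over all 10 genes the 2 h median was 1112.5 bp. At Rnu3a the summed length was 550 bp in the nascent, 1350 bp in the 30 min, 1675 bp in the 1 h and 1775 bp in the 2 h list. Its peaks began at 40258401 in the nascent list and at 40257526, 40257451 and 40257401 in the later lists. The later starts lie beyond the Gtf3c6 TSS, 802 bp upstream, so these lengths may include the promoter of Gtf3c6.

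**Figure D4:**
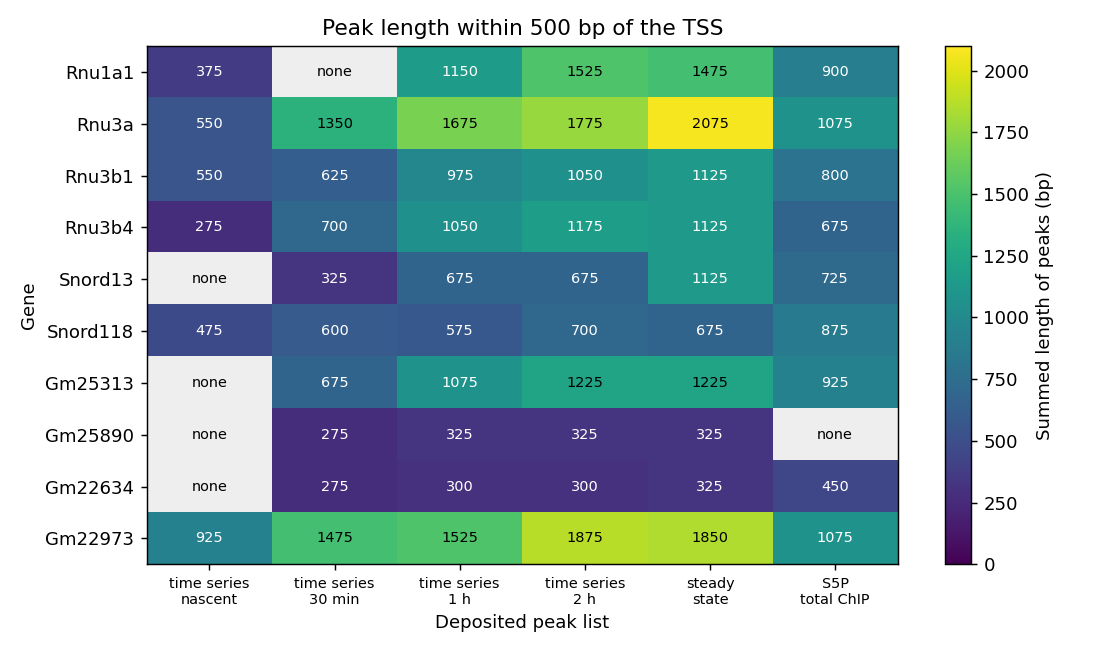
Summed length in bp of the deposited peaks within 500 bp of each TSS, by peak list, with "none" where no peak lay there. In the nascent list 4 genes have none, and in the 1 h, 2 h and steady-state lists all 10 genes have 300 bp or more.

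The spike-in samples repeated the nascent and 2 h comparison in other libraries, over 5 kb regions. All 10 regions rose, by 2.26 to 4.12 on the deposited log2 scale, past the limma threshold that 30.1% of regions passed upward. Some of these regions also hold neighbours, such as the Gtf3c6 TSS, 802 bp from that of Rnu3a, and the Tti2 TSS, 349 bp from that of Snord13. The part of such neighbours in the rise was not tested. The median of all regions was 0.79. These values may have entered the choice of the genes and are descriptions. Gm22634 rose by 4.12 (SE 0.57), from 2.42 and 2.97 to 6.77 and 6.87. Rnu3a rose by 3.47 (SE 0.56), from 5.17 and 6.21 to 9.17 and 9.15. Rnu1a1 rose by 2.30 (SE 0.53), from 5.29 and 5.74 to 7.94 and 7.69. With 2 libraries per group these calls were fragile: without a filter on low values 0 of 10 passed. Leaving out a 2 h library leaves 1 in that group, so only the differences are given for such fits. They were 2.15 to 4.18 without 2 h library 1 and 2.25 to 4.07 without 2 h library 2. Centred on the median TSS region all 10 passed, and the regions called split into 8228 higher and 6151 lower, against 9223 and 414.

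Other genes were read beside them from a list of 21 polymerase II small RNA genes, of which 13 had a TSS and 11 were tested in the EdU fraction. Whether each of them has a promoter of its own, like that of the 10 genes, was not checked. Over the chase in DRB 8 of 11 rose (median 1.61), where 35.1% of all windows did. They included Rnu5g, of the U5 RNA (2.91), Rnu11, of the minor spliceosome (2.50), Rnu7, of histone mRNA processing (2.02), and Rnu2-10, of the U2 RNA (1.80). At 2 h triptolide minus DRB was called lower for 8 of 11, where 14.8% of windows were, with Rnu5g at -2.20 and Rnu11 at -2.13. Snord8, Snord14a and Rnu1b2 were called in neither. Rnu1b1 and Rnu1b6 were at 0 RPM in nascent DMSO and all 2 h EdU groups, and in the unbound 2 h DMSO and triptolide groups. Rnu1b2 had at most 0.21 RPM in the same groups. Windows so empty in both fractions do not show whether these genes open.

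Among 12 tested genes of polymerase III small RNAs, 7 rose in DRB over the chase (median 1.01), beside the same 35.1%, led by Rmrp (3.04), Rpph1 (2.30), Rn7s2 (1.61) and Rn7sk (1.46). At 2 h triptolide minus DRB was called lower for 6 of 12, beside 14.8%, including Rpph1 (-1.56) and Rmrp (-1.30). In the unbound fraction at 2 h, triptolide minus DMSO was called lower for 1 of 12, Rmrp (-0.51), and for 7 of the 11 polymerase II genes, where 12.2% of windows were. Snord14a was the 1 entry of the polymerase II list called higher (0.72). Of 28 genes for factors that transcribe or process these RNAs, 22 rose in DRB over the chase (median 1.30), against 35.1% of windows, led by Ints3 (2.52), Phax (2.40), Ints9 (2.07) and Snapc5 (1.58). At 2 h 16 of 28 were called lower in triptolide than in DRB, against 14.8% of windows, with Ints11, the Integrator endonuclease, at -1.67.

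The genes whose levels over the 12 inhibitor groups were most like Rnu1a1, among 6705 named windows and with the 10 genes themselves left out, were Gm25099 (Pearson r = 0.99), Gm22068, Gm22265, Rnu2-10 and Gm24830, all snRNA genes in the RefSeq table. The most like Rnu3a were the histone genes H2ac13 (r = 0.99), H2bc8 and H2bc13, then Rnu7 and Eif5a. These correlations are over 12 group means of 36 libraries that share their depth and treatment, and are descriptions. Rnu1a1 itself correlated with Rnu3a at r = 0.91 and with the other 8 genes at 0.96 to 0.99. In 2 h EdU chromatin Gm25099 had 23.6 ± 3.04 RPM in DMSO, 14.1 ± 1.32 RPM in DRB and 1.60 ± 0.61 RPM in triptolide (SD, n = 3). H2ac13 had 13.3 ± 0.98, 7.81 ± 1.04 and 1.52 ± 0.71 RPM.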

How the data were processed

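The submitters' processing notes list Bowtie2 2.2.6.2 for the mm10 build, and Trim Galore 0.4.2. No source used here names the peak caller. The inhibitor tables deposited by the authors hold log2(RPM + 1) in 1 kb windows every 500 bp, per the file headers. The spike-in table deposited by the authors gives log2 values for TSS regions of 5 kb. Its scaling is not stated, and 1 read stands for 1.09 to 2.28. Peak lists hold positions only. RPM and reads were recovered by undoing the log2, and 100% of the inhibitor values came within 0.1 read of a whole number. For spike-in only low values were checked (100%). Genes were matched to TSSs through a RefSeq table (GRCm38.p6).

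Windows above 0 in at least 3 libraries (2 for spike-in) were tested in R 4.3.3 by the moderated, trended test of limma 3.58.1. The 18 libraries of each fraction shared a fit, p-values were adjusted over all windows by Benjamini-Hochberg, and the threshold was 0.05. The fit was tested on simulated data for bias, errors and false calls. These checks replaced a first criterion, on how many simulated falls were recovered, which was not met: falls from low levels were often missed. Genes, lists and tests were chosen with earlier results of these data known. All 10 genes were named, list genes by size among those called (up to 4 per comparison), and like genes as the 5 highest Pearson r among windows with a group mean of at least 3. Alternatives were another pseudocount (0.1 RPM), no filter, other scalings, limma-voom, another window, a replicate block and leaving out each library. Member promoter motifs were not analysed here, and neither were the S5P ChOR samples.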

Additional observations from a re-analysis of the deposited data

Results flagged for a closer look

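The difference between triptolide and DRB in the 2 h minus nascent change of EdU chromatin passed the threshold of the test of this difference for 9 of the 10 genes, for 3 with a pseudocount of 0.1 RPM and for 2 with limma-voom. It was -2.92 for Rnu1a1 (SE 0.46), -2.82 for Snord118, -2.73 for Rnu3b4, -2.66 for Gm25890, -2.61 for Rnu3b1, -2.60 for Rnu3a, -2.58 for Gm22634, -2.36 for Gm22973 and -2.22 for Gm25313 (SE 0.45). These libraries may have entered the choice of the genes, so the values are descriptions and support nothing. The comparison was added after the data were seen.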

How the results depend on the processing

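The counts of 10 of 10 genes for DRB over the chase, for triptolide minus DMSO at 2 h and in both unbound comparisons, and for triptolide minus DRB at 2 h kept their direction and count under every alternative run. Rnu3a's DRB minus DMSO call in nascent EdU chromatin (1 gene) fell to 0 with centring on the median TSS, limma-voom or only the groups compared. At 2 h it fell to 0 with a pseudocount of 0.1 RPM or centring, and 3 genes were called with only the groups compared. In the unbound fraction at 2 h 0 genes were called without a filter, and 2 with scaling to background windows, limma-voom, the mean of 2 windows or only the groups compared. Scaling to background windows called 1 gene in triptolide over the chase, Rnu3a (0.78). The same scaling called 9162 of 29799 windows higher, against 4204 without it. The difference between times of the triptolide effect was called for 3 genes with a pseudocount of 0.1 RPM and 3 with limma-voom, and that between triptolide and DRB for 3 and 2. The median DMSO gain was 3.69 with a pseudocount of 0.1 RPM, 2.59 centred, 3.60 scaled to background windows, 3.55 with limma-voom and 2.57 with the mean of 2 windows, against 3.01. The spike-in count was 0 without a filter. Requiring 500 bp of the TSS window gave 2, 5, 6 and 6 genes with a peak in the nascent, 30 min, 1 h and 2 h lists. The share of all TSSs under that rule is not given here, so no gain is read from these counts. In these cases the cause was not tested.

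Leaving out 1 library at a time gave 2 to 3 genes for triptolide and 0 to 1 for DRB in nascent EdU chromatin. It gave 0 to 1 for DRB at 2 h in either fraction and 9 to 9 for the triptolide and DRB difference. The median DMSO gain was 2.86 to 3.11. In the spike-in samples it leaves 1 library in a group, so no count is given. No comparison had every same-numbered pair of libraries correlated over 0.1. In most comparisons the highest correlation of same-numbered libraries was still above the highest of other numbers. Such low values from shallow libraries cannot settle whether the numbers pair the samples. With the replicate number as a block (replicate block) 6 of 10 genes passed in the spike-in samples. The counts of the other 14 comparisons and the median DMSO gain of 3.01 were as without it. Centring moved the median of all windows for triptolide minus DMSO at 2 h from -0.29 to 0.07, and the calls from 812 higher and 8516 lower to 2449 and 4627. Depth limits the nascent and triptolide values, which rest on few reads.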
